A study of Mus musculus with 12 samples.

Results

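Contacts of the splicing regulator ESRP1 were examined in 10 genes of membrane trafficking and cell signalling that are known for ESRP-dependent exons: Atp6v1c2, Ralgps2, Plekha1, Golga2, Fnip1, Lrrfip2, Dnm2, Map3k7, Numb and Nf2. They are 10 of 21900 protein-coding genes of the RefSeq annotation of GRCm38.p6, and were taken by name. The data are eCLIP, in which proteins are crosslinked to bound RNA by ultraviolet irradiation and reverse transcription of the recovered RNA tends to stop at the contact. The labels list 6 FLAG immunoprecipitations, each with its own input (6 in all), from back-skin epidermis of pups on postnatal day 1 with genotype Esrp1FLAG/FLAG. Every library carries the FLAG tag on both alleles of the endogenous gene, and no untagged library was analysed here. The membrane strip from which RNA was recovered ran from 75 to 140 kDa. The values are 3 lists of sites 1 nt wide, which the authors called against input for pairs of replicates: 1 and 2 for list 1, 3 and 4 for list 2, and 5 and 6 for list 3.

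ESRP1 and its paralog ESRP2 are epithelial RNA-binding proteins that switch cassette exons between epithelial and mesenchymal forms. They bind GU-rich RNA, and in known targets the place of binding relative to an exon goes with its inclusion or skipping. Many of the exons they control lie in genes of adhesion, polarity, vesicle traffic and signalling, and the switched protein segments can change the partners or the location of the protein. Exon positions were not used here, so the regions below are placed by their distance from the ends of each gene span and from its annotated starts, not from a regulated exon.

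The lists held 73602, 40014 and 53864 sites and carry no read counts, so the depth behind each is unknown, and expression was not measured. The basal keratin gene Krt5, a defining marker of epidermis, held 30, 16 and 34 sites on its strand in lists 1, 2 and 3. Of the other epidermal genes looked up, Krt15 held 22, 36 and 15 sites and Trp63 25, 19 and 17 with both strands counted, Krt10 held 2, 2 and 0, and Krt14 and Krt1 held none. Of genes of other skin cells, the fibroblast gene Col3a1 held 1, 3 and 1 sites, and Col1a1, Ptprc, Pecam1 and Mlana held none. The lists pool replicates, so the spread between individual animals or libraries cannot be seen, and the immunoprecipitates and inputs have no values of their own in them with which a member could be tested. All values below are therefore descriptions.

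A single sequence could be shown beside a site, because the tables used give sequence only around annotated starts. It is the stretch of the Plekha1 transcript that holds a list 3 site just upstream of a region found in all 3 lists, and is shown as the only member site with known letters. The site is the capital letter, at position 23 of 30 counted from the 5′ end, on the plus strand of GRCm38.p6 at chr7:130865907-130865936 (RefSeq).
Plekha1: tgggcgccgctcccggcagctgGgtgcctg
These 30 bases hold 13 G, 11 C, 5 T and 1 A. TGG occurs 2 times and GGT 1 time on this strand, the only strand searched, and one of the TGG copies overlaps GGT. Of the last 30 bases of all 32851 annotated start windows, 49.5% hold TGG and 36.3% hold GGT on the gene's strand, so that either motif is common in such windows.

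All 10 genes held ESRP1 sites in each list, on the strand of the gene. The members held 118 sites in list 1, 50 in list 2 and 110 in list 3. Per 100000 sites of the list this was 160, 125 and 204 sites. Of protein-coding genes whose strand is known (17492), 19.5% had a site in each list. On the opposite strand the 10 spans held 12 sites over the 3 lists, against 278 on the genes' own strand. All 12 lay inside the span of another gene there: 9 in Dnm2 under Tmed1, which encodes a cargo receptor of early secretory traffic, and 3 in Numb under Papln.

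**Figure D1:**
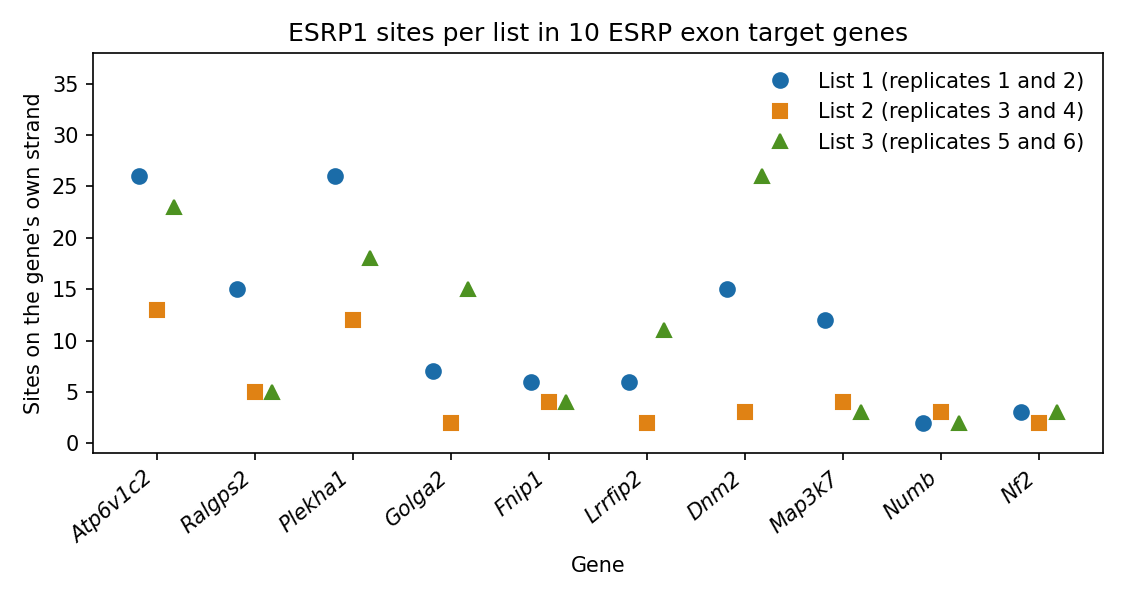
Number of ESRP1 sites on the gene's own strand (y axis) in each of the 10 genes (x axis), with 1 point for each list of 2 replicates. Atp6v1c2 and Plekha1 were high in every list, whereas Dnm2 ran from 3 sites in list 2 to 26 in list 3.

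The sites of the lists were laid together and neighbours no more than 10 nt from each other were joined into regions, and a region counted as found in all 3 lists where it held sites of each. By this measure 9 of the 10 genes had a region in all 3 lists, and 19 such regions lay in them. The same held for 16.5% of protein-coding genes of known strand, for 22.7% of those whose span lay within the range of the members (19627 to 135685 nt), and for 48.5% of those with a site on their own strand in any list. The members were proposed with results of these lists known, so the count of 9 of 10 is given as a description. Atp6v1c2 had 5 regions, Ralgps2 and Plekha1 had 3 each, Golga2 and Fnip1 had 2 each, and Lrrfip2, Dnm2, Map3k7 and Numb had 1 each. Nf2 had none. The share of protein-coding genes with at least 2 such regions was 6.29%, and with at least 3 it was 2.57%. Neither share was matched for span or for holding a site. A further 21 member regions came from 2 lists and 41 from a single list. Of the 21, 14 lacked list 2, which is the shortest list, 4 lacked list 3 and 3 lacked list 1. Without list 2 the members had 33 regions found in both remaining lists, 4 of them in a stretch of Dnm2 described below.

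**Figure D2:**
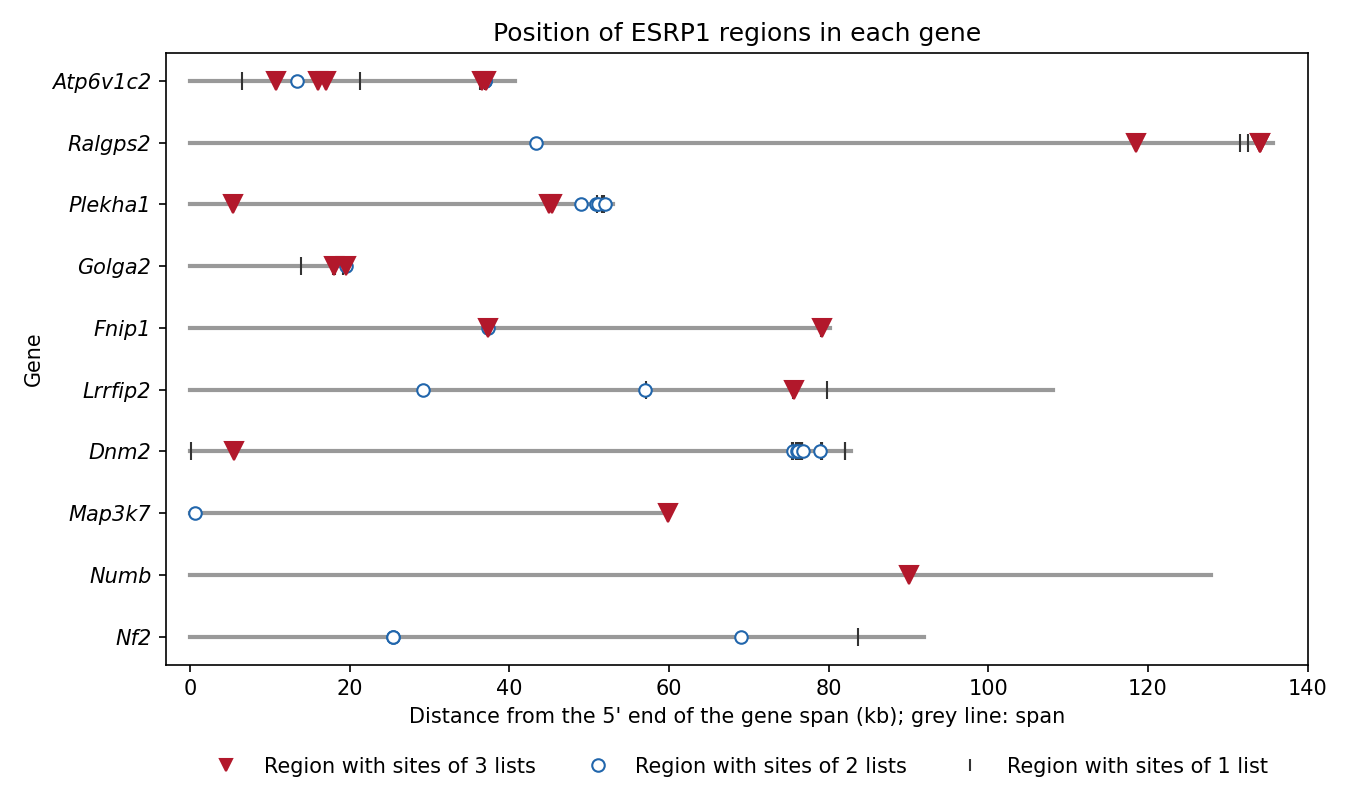
Position of every region along the span of each gene, from the 5′ end (x axis, kb), with genes down the page. Filled triangles are regions with sites of all 3 lists, open circles those of 2 lists and ticks those of 1 list. Golga2 and Ralgps2 have their triangles near the 3′ end, Atp6v1c2 has them in 3 separate places, and Nf2 has no triangle.

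Among the trafficking genes, Atp6v1c2 had the most sites per length with the 3 lists added together. It encodes a C subunit of the peripheral sector of the proton pump that acidifies vesicles, and held 26, 13 and 23 sites in lists 1, 2 and 3. Over its span (chromosome 12, 17284721 to 17325386, minus strand) this sum was 15.2 sites per 10 kb. It was 12.2 in Golga2 and 10.6 in Plekha1, the next members in this order, and 0.547 in Numb. A nucleotide that is a site in several lists counts several times in this sum. As distinct nucleotides Atp6v1c2 held 39 and Golga2 18, which brings their densities closer. In list 3 Golga2 was denser, with 15 sites over 19627 nt against 23 over 40666 nt. In lists 1 and 2 Atp6v1c2 was denser. Its 5 regions in all 3 lists were exceeded in 38 of the 17492 genes, and 0.429% of genes had at least as many. Of these genes only 5959 held a site on their own strand, and their median span was 16907 nt. The share was matched for neither, so it overstates how rare such a count is among genes like Atp6v1c2. The region with the highest scores covered 17288749 to 17288757, 4028 nt from the 3′ end of the span. Its highest score stood at percentile 97.9, 96.3 and 95.3 of the sites of lists 1, 2 and 3. The deposited score has no stated scale, so a percentile gives its rank within its own list only. A weaker region lay 454 nt away on the 3′ side, at 17288290 to 17288294, with percentiles of 63.8, 69.0 and 13.7.

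The other Atp6v1c2 regions lay in the interior of the gene. A pair at 17308329 to 17308336 and 17309366 to 17309368 was 1029 nt apart, and a last region at 17314633 to 17314634 lay 10752 nt from the 5′ end. Percentiles in the pair ran from 80.2 to 93.4. In the last region the same nucleotide, 17314634, had the highest score in each list. A region of lists 1 and 3, at 17311977 to 17311986, had 6 and 4 sites there and none in list 2. With the sites of the upper 50% of scores, Atp6v1c2 had 4 regions in all 3 lists.

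Golga2 encodes GM130, a golgin of the cis-Golgi matrix that tethers vesicles. Its sites numbered 7, 2 and 15 in lists 1, 2 and 3, and list 3 was thus the highest also when divided by list size (9.51, 5.00 and 27.8 per 100000 sites). Both of its regions in all 3 lists lay close to the 3′ end of the span on chromosome 2. The stronger one, at 32307805 to 32307807, was 106 nt from that end, with percentiles of 95.5, 80.4 and 89.6 in lists 1, 2 and 3. Nucleotide 32307806 had the highest score of the region in every list. The other region, at 32306292 to 32306298, stood at percentile 1.96 in list 2, where it rests on 1 site. With the upper 50% of scores, 1 Golga2 region remained in all 3 lists. A group of 6 sites at 32302228 to 32302235 was in list 3 alone.

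Dnm2 encodes dynamin 2, the GTPase that pinches vesicles from membranes. It had 15, 3 and 26 sites in lists 1, 2 and 3, the widest spread among the members, and no nucleotide of the gene was a site in all 3 lists. A single region was found in all 3 lists, at chromosome 9, 21430454 to 21430465, 5546 nt from the 5′ end. It held 5, 1 and 5 sites with percentiles of 72.0, 54.2 and 56.5, and its highest-scoring nucleotides lay up to 10 nt apart. Without list 2, Dnm2 had 5 regions in both remaining lists, but 4 of these lay in the stretch described next.

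Of the 23 Dnm2 regions of any list, 15 lay in a stretch of 1379 nt, from 21500369 to 21501747. This stretch held 7, 0 and 14 sites in lists 1, 2 and 3, and none of its regions was in all 3 lists. Between the starts of successive regions were 14 distances, from 41 to 309 nt. All 14 were within 4 nt of a multiple of 44 nt. That unit was chosen after the distances were seen, and the sequence of the stretch was not analysed here. Such spacing can also mark a tandem repeat. It is therefore uncertain whether these 15 regions, with 21 of the 44 Dnm2 sites, are separate contacts, and this was not tested. Outside the stretch Dnm2 had 8, 3 and 12 sites. In the same span, on the opposite strand, a region at 21507675 to 21507686 had 3 sites in each list, under Tmed1.

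Numb encodes an endocytic adaptor that restrains Notch signalling, and splicing of its exons gives protein forms that differ in the phosphotyrosine-binding domain and the proline-rich region. It had few sites, 2, 3 and 2 in lists 1, 2 and 3, over a span of 127909 nt. Every one of them fell in a single region, at chromosome 12, 83831907 to 83831912, on the minus strand. The percentiles of the region were 84.5, 79.4 and 74.9, and nucleotide 83831912 had the highest score in each list. The region lay 37873 nt from the 3′ end and 10446 nt downstream of the nearest of 3 annotated starts. The span of the long noncoding RNA gene Gm46367, whose strand is not given in the tables used, also covers it, so it could belong to either gene. Without regions under another annotated gene, Numb had none.

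Among the genes of small GTPase, lipid and nutrient signalling, Plekha1 was the richest in sites. It encodes TAPP1, an adaptor whose PH domain binds phosphoinositides made downstream of PI3-kinase. Its sites numbered 26, 12 and 18 in lists 1, 2 and 3, and its share differed little between lists 1 and 3 once divided by list size (35.3 and 33.4 per 100000 sites). The first region in all 3 lists, at chromosome 7, 130865945 to 130865957, began 58 nt downstream of an annotated start. It had 6, 3 and 4 sites and percentiles of 81.2, 73.8 and 89.8, and nucleotide 130865955 had the highest score in each list. It begins 8 nt past the end of the sequence printed above, and the site capitalised there, at 130865929, was in list 3 alone. The long noncoding RNA gene Gm5602 also spans this place, but on the minus strand.

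Both other Plekha1 regions lay 352 nt apart, at 130905581 to 130905585 and 130905938 to 130905958, 85.1% and 85.7% of the way along the span. The first of them reached percentiles of 93.2, 95.7 and 71.5, and the second 76.6, 52.8 and 59.5. Further toward the 3′ end came 4 regions that were each in 2 lists, at 130909477 to 130909478, 130911406 to 130911408, 130911697 to 130911705 and 130912541 to 130912542. The third of these had 5 sites in list 1, 1 in list 2 and none in list 3. Without list 2, as without list 3, Plekha1 had 5 regions in both remaining lists.

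Ralgps2 encodes an exchange factor that activates Ral GTPases, which act in secretion through the exocyst. It held 15 sites in list 1 and 5 each in lists 2 and 3, over the longest member span, 135685 nt on the minus strand of chromosome 1. A pair of its regions lay 11 nt apart near the 3′ end, at 156805817 to 156805826 and 156805838 to 156805841. The nearer of the pair was 1651 nt from that end. This pair counted as a single region where sites up to 20 nt apart were joined, so that Ralgps2 then had 2. The third region, at 156821340 to 156821350, had percentiles of 60.2, 82.1 and 71.7, and nucleotide 156821342 had the highest score in each list. Scores in the pair were lower, with percentiles from 12.5 to 63.9.

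Fnip1 encodes a partner of folliculin in AMPK and mTORC1 signalling. With 6, 4 and 4 sites in lists 1, 2 and 3 it had few contacts, and a strong one among them. The region at chromosome 11, 54475458 to 54475460, in the middle of the gene, stood at percentile 97.9, 94.5 and 96.7, and nucleotide 54475459 had the highest score in each list. It lay 37351 nt from the 5′ end and 42781 nt from the 3′ end. Lists 1 and 3 shared a site at 54475442 beside it. The second Fnip1 region, at 54517290 to 54517295, was 946 nt from the 3′ end, with percentiles of 43.1, 51.7 and 64.4. With the upper 50% of scores only 1 Fnip1 region was found in all 3 lists.

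The kinase, Wnt and Hippo pathway genes had at most 1 region in all 3 lists each. Map3k7 encodes TAK1, a kinase that relays TGF-beta and interleukin 1 signals to NF-kappaB and stress kinases. Its sites numbered 12, 4 and 3 in lists 1, 2 and 3. The region in all 3 lists, at chromosome 4, 32023375 to 32023383, was 87 nt from the 3′ end of the span and held 7, 3 and 3 of these sites. Its percentiles were 89.7, 97.4 and 93.9, so that it ranked high in each list. A region of lists 1 and 2, at 31964170 to 31964180, began 63 nt downstream of the annotated start, with 4 sites and 1 site there. Without list 3, Map3k7 had both of these.

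Lrrfip2 encodes a coiled-coil protein that binds flightless and Dishevelled and acts in Wnt and Toll-like receptor signalling. It had 6, 2 and 11 sites in lists 1, 2 and 3. Both list 2 sites lay in the region at chromosome 9, 111193166 to 111193175, which held 2 sites in each list. Its percentiles were 95.9, 88.9 and 92.7, and nucleotide 111193166 had the highest score in every list. The region lay 75620 nt from the 5′ end, in the interior of a span of 108123 nt. A broader group at 111146711 to 111146734 had 5 sites in list 3, 1 in list 1 and none in list 2. Without list 2, Lrrfip2 had 3 regions in both remaining lists.

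Nf2 encodes merlin, a FERM-domain tumour suppressor that links membrane and cortex and acts upstream of the Hippo kinases. It held 3, 2 and 3 sites in lists 1, 2 and 3, no region in all 3 lists and no nucleotide that was a site in all of them. Each pair of lists did share a region. Lists 1 and 2 shared chromosome 11, 4780549 to 4780550, lists 2 and 3 shared 4824054, and lists 1 and 3 shared 4824078 to 4824080. The last 2 regions are close enough that joining sites up to 50 nt apart made them a single region with sites of all 3 lists. Nf2 had 1 region in both remaining lists when any list was left out.

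**Figure D3:**
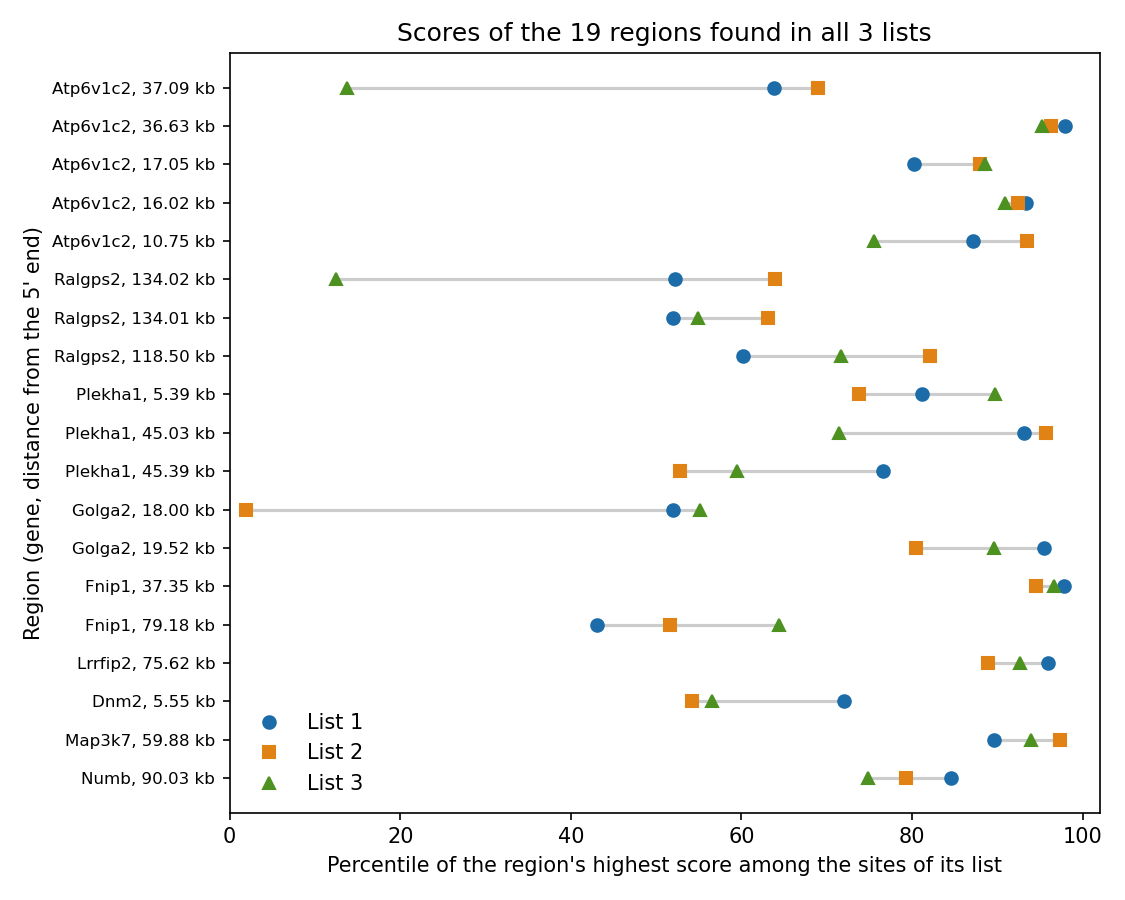
Percentile of the highest score of each of the 19 regions found in all 3 lists (x axis, among all sites of the same list), with regions named by gene and distance from the 5′ end. Each row has 1 point for each list. The Fnip1 region in the middle of the gene and the strongest Atp6v1c2 region reach at least percentile 94.5 in every list, and the weaker Golga2 region stands at 1.96 in list 2.

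Some nucleotides recurred between lists, in 8 of the 10 genes. Of the members' sites, 24 nucleotides were sites in all 3 lists, which was 20.3% of those in list 1, 48.0% in list 2 and 21.8% in list 3. Over protein-coding genes of known strand the shares were 17.4%, 32.4% and 22.0%. Atp6v1c2 gave 8 of the 24 nucleotides and Plekha1 gave 6. The highest-scoring nucleotide was the same in all 3 lists in 7 of the 19 member regions (36.8%), against 35.1% of 4764 regions in protein-coding genes. These 7 lay in 7 different genes: Atp6v1c2, Ralgps2, Plekha1, Golga2, Fnip1, Lrrfip2 and Numb. In 14 of the 19 (73.7%) the highest-scoring nucleotides lay within 2 nt of each other, against 64.4%. The median percentile of the highest score was 81.2 for member regions and 80.3 for regions in protein-coding genes in list 1. It was 80.4 and 73.0 in list 2, and 74.9 and 75.3 in list 3. Taken list by list, the members thus stood higher by more than 1 percentile in list 2 alone. With the percentiles of each region averaged over the lists first, the median was 81.6 for member regions and 72.8 for regions in protein-coding genes.

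Member regions lay toward the 3′ side of their genes, as regions in protein-coding genes did in general. The median position was 85.7% of the way along the span in the members and 75.5% over the 4764 regions. Of the 19 member regions, 3 (15.8%) lay in the last 1000 nt, in Golga2, Fnip1 and Map3k7, and none in the first 1000 nt. For protein-coding genes whose span reached 4000 nt these shares were 20.1% and 9.54%. With zones of 2000 nt, 6 member regions (31.6%) lay at the 3′ end, against 30.9%, so that the members' shares at the 3′ end were near or below those of protein-coding genes. A single member region, in Plekha1, lay within 100 nt downstream of an annotated start (5.26%, against 4.97%).

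Other known ESRP splicing targets and the pathway partners of the members were counted in the same way. The partner lists also include the close paralogs of the members, such as Ezr and Lrrfip1. Of 19 other targets, 16 have a known strand, and 11 of these (68.8%) had a region in all 3 lists, with Ctnnd1, which encodes p120-catenin, at 13 and Cd44 at 8. The median was 1.5 regions in the members and 1.5 in these targets. Of 105 genes in 10 partner lists, 89 have a known strand, and 31 (34.8%) had such a region. The share was 16.5% over protein-coding genes of known strand, and 22.7% over those within the range of the members' spans. Among genes with a site on their own strand in any list, it was 31 of 67 partners and 11 of 12 other targets. Over the 5959 protein-coding genes with such a site it was 48.5%, so the partners did not stand above these genes. The genes of these lists are longer, with a median span of 97443.5 nt in the other targets and 46077 nt in the partners. Over protein-coding genes of known strand it was 16907 nt, and the part of gene length was not tested. The shares of single partner lists ran from 0 of 4 among Lrrfip2 partners to 7 of 11 among subunits and accessory proteins of the proton pump. The pump's accessory gene Atp6ap2 had 5 regions, as many as Atp6v1c2. In TAK1 signalling 6 of 11 genes had one, with 3 regions in Tab3 and 2 each in Tab2 and Traf6, which encode adaptors and a ubiquitin ligase that activate TAK1. In endocytosis it was 5 of 10, with 2 regions each in Ap2b1 and Sh3gl1, and in the merlin and Hippo list 4 of 12, with 3 each in Ezr and in Yap1, the effector of the pathway. The folliculin, AMPK and mTORC1 list had 1 of 10 (Mtor, 2 regions), and the Golgi matrix list 1 of 8 (Rab1a, 3 regions). The Notch list had 3 of 9, the phosphoinositide list 2 of 5 and the Ral list 2 of 9.

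Close paralogs of the members differed widely in contacts, and Atp6v1c1 and Plekha2, whose strand is unknown, were not counted. Fnip2 and Dnm1 held no site in any list, Ralgps1 held 1 and Dnm3 held 3 over all lists. Numbl, the paralog of Numb, held 5 sites in list 2 and none in lists 1 and 3. Lrrfip1 was different in its sites, 11, 2 and 8 in lists 1, 2 and 3, but had no region in all 3 lists. Among the relatives of merlin, ezrin (Ezr) held 27, 17 and 19 sites, radixin (Rdx) 6, 1 and 1, and moesin (Msn) 0, 2 and 3. Expression was not measured, so its part in these differences was not tested.

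**Figure D4:**
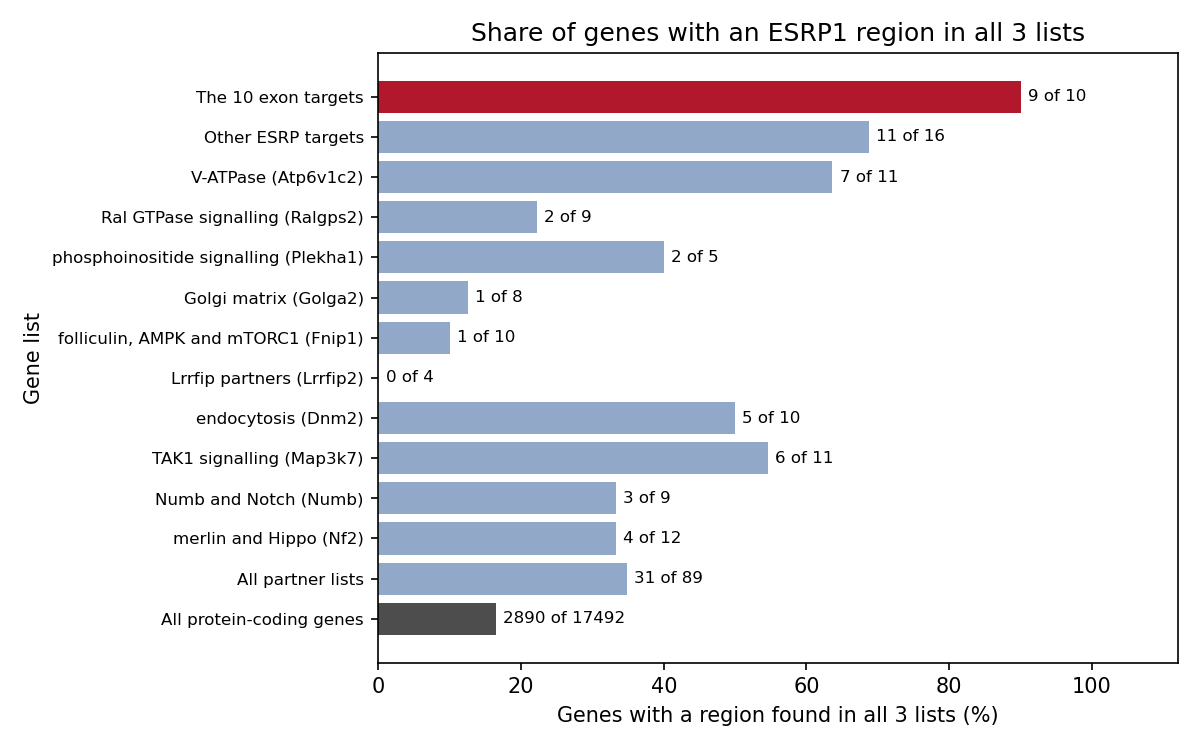
Share of genes with a region found in all 3 lists (x axis, percent) in each gene list, with the count of genes beside each bar. The 10 exon targets stand at 9 of 10, the partner lists together at 31 of 89 and all protein-coding genes of known strand at 2890 of 17492. Gene length and the share of genes with any site differ between the lists and were not matched.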

How the data were processed

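The authors deposited 3 lists of sites 1 nt wide with a strand and a score whose scale is not stated. Per the file headers each was called with input on 2 replicates. Builds GRCm38 and mm10 and the tools HISAT2 2.1.0, cutadapt 1.16 and HOMER appear, without roles, in the submitters' processing notes. Duplicate removal, treatment of multiple alignments and the caller's settings were not given in the sources used here. Both calling with input and the aligner's choice among copies can remove or add sites. Gene spans and annotated starts came from RefSeq tables of GRCm38.p6. Strand was taken from the start table, which gives it for 17492 of 21900 protein-coding genes, and for all members. A region belongs to a gene when its middle lies in the span on the gene's strand. Coordinates are 1-based. Background regions under several protein-coding spans of the same strand were left out. Python 3.11.15 was used, and the joining step was tested on simulated data. The members and lists were chosen with earlier results of these data known. All members were named; of other lists, up to 4 genes with most regions and the members' paralogs could be named. The 11 tissue markers were looked up after the lists had been examined, on both strands where the strand is unknown. No per-library count was analysed here, so no interval, SD or test over libraries is given.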

Additional observations from a re-analysis of the deposited data

Results flagged for a closer look

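The Dnm2 span held 9 sites on the strand opposite to the gene, 3 in each list, outside the count of its own strand. All 9 lay in 1 region at chromosome 9, 21507675 to 21507686, so they are not separate places. The region is inside the span of Tmed1, which runs on that strand.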

How the results depend on the processing

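Results were recomputed with other settings. With joining and sharing at 5, 20 and 50 nt, the members had 20, 19 and 21 regions in all 3 lists, and 9, 9 and 10 members had one. The share of protein-coding genes of known strand with one was then 16.0%, 16.9% and 17.2%, against 16.5%. With the upper 50% of scores, 15 regions in 9 members and 142 sites (against 278) were left, and 23 of 89 partner genes had a region, against 31. The share of protein-coding genes with a region was then 11.8%. On the opposite strand there was 1 region, in 1 member. Without regions under another gene there were 17 in 8 members. Leaving out a list gave 22 to 33 regions in 10 members. That setting asks for sites of only the 2 remaining lists, a looser rule under which counts tend to rise. Nf2 gained a region in it because each pair of lists shared one. It therefore does not show that the result for all 3 lists is robust. The 33 came without list 2, and 4 of them lay in the Dnm2 stretch of 1379 nt. Protein-coding genes with a region made up 17.8%, 20.4% and 20.4% without lists 1, 2 and 3. The median percentile of member regions, averaged over lists, then ranged from 81.4 to 81.9 (81.6 with all 3 lists), a setting chosen after seeing the data. For regions in protein-coding genes it was 72.8 with all 3 lists, and no value with a list left out is given. Whether the gap to the members held in those settings was therefore not tested. With end zones of 2000 nt, 6 regions lay at the 3′ end, against 3. Allowing 1 nt between lists gave 30 shared nucleotides, against 24. Of 100 counts for single genes, 24 moved by more than 1.5 times. No paired analysis was possible because immunoprecipitates and inputs of a replicate have no values of their own in the lists. The planned windows of sequence at each region were not run. Read depth is unknown, and limits what a site missing from a list can show.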
